A study of Mus musculus with 84 samples.

Results

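The hepatic response of CBA/J mice to TCDD was measured in 6 libraries of the 84 in the series, 3 from TCDD-treated and 3 from vehicle-treated animals, all chosen by their strain and treatment labels. TCDD (2,3,7,8-tetrachlorodibenzo-p-dioxin) is a long-lived dioxin that binds the aryl hydrocarbon receptor (AHR). The livers came from pregnant CBA/J females that were 6 to 8 weeks old at the start. Treated mice received 0.1 µg of TCDD per kg by mouth in peanut butter on each of 10 days, and control mice received the peanut butter alone at a dose of 0. CBA/J is an inbred laboratory strain. The other 78 libraries hold the same pair of groups for 13 further strains. Of these, the recombinant inbred line BXD91/2RwwJ and the inbred strain C3HeB/FeJ were each compared directly with CBA/J. The labels do not say how the 3 libraries of a group relate to animals, and p-values therefore reflect only how far libraries vary. The spread behind them was estimated over all 84 libraries of the series, not over those of CBA/J alone.

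AHR waits in the cytoplasm in a complex with the chaperone HSP90, and on binding dioxin it moves to the nucleus, pairs with ARNT and binds DNA at sites built around the core letters GCGTG. Its best known liver targets encode enzymes of drug metabolism, among them the cytochromes P450 Cyp1a1 and Cyp1a2, the quinone reductase Nqo1 and several glucuronosyltransferases. AHR also induces its own repressor, Ahrr, and the ADP-ribosyltransferase Tiparp, which both damp the response.

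Each CBA/J library held 13094156 to 17252613 counts assigned to genes, over 17171 to 18391 detected genes. Levels are given as CPM, counts scaled to a common library size. Albumin (Alb) lay between 56660 and 73870 CPM in the 6 libraries and Xist between 148.5 and 511 CPM, and the 4 Y-linked genes examined did not exceed 0.0686 CPM, so the libraries carry the marks of female liver. The summed level of 9 placenta and decidua markers was at most 0.175 CPM. Mitochondrial genes took 2.97%, 2.98% and 3.20% of the counts in the vehicle libraries and 3.49%, 3.85% and 4.10% in the TCDD libraries, 2 ranges that do not overlap. Skeletal muscle markers summed to 167.1 CPM in vehicle replicate 3 and 201 CPM in TCDD replicate 2, against 8.30 to 15.7 CPM in the other 4 libraries, so 1 library of each group stood apart. In the 4 lowest libraries such muscle genes as Acta1, Ckm and Myh2 were at or near 0.

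Of 16195 genes tested, 4 changed in CBA/J at an adjusted p below 0.05, which is 0.0247% of those tested, and all 4 rose. They were Cyp1a1, Cyp1a2, Htatip2 and Ugt2b35. The count depended on the libraries: without vehicle replicate 1 or vehicle replicate 2 it was 2 genes, without TCDD replicate 1 it was 10 (6 higher, 4 lower) and without vehicle replicate 3 it was 25 (12 higher, 13 lower). Cyp1a1 and Cyp1a2 are neighbouring genes for cytochromes P450 that oxidise planar aromatic compounds. Htatip2 encodes a short-chain reductase-like protein, and Ugt2b35 belongs to a family of glucuronosyltransferases that attach a sugar acid to drugs and hormones. The promoters of the 4 genes are shown because AHR acts on DNA near its targets. They are RefSeq sequences of build GRCm38.p6, from 250 bases before to 50 bases after the annotated start, in the sense of the gene. Capitals mark GCGTG or its complement CACGC, the core of the AHR site.
Cyp1a1, chr9:57697363-57697662, + strand: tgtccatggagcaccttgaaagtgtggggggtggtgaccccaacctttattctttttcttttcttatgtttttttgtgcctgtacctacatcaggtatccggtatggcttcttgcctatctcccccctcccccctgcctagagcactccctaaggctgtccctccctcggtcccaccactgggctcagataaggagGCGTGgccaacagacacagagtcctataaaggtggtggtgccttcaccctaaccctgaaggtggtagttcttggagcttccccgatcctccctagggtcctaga
Cyp1a2, chr9:57683606-57683905, - strand: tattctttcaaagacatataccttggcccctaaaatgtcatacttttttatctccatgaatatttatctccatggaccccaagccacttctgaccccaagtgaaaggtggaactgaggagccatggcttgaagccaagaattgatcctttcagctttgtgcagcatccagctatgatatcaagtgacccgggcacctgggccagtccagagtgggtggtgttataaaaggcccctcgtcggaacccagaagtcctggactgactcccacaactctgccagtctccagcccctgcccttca
Htatip2, chr7:49758856-49759155, + strand: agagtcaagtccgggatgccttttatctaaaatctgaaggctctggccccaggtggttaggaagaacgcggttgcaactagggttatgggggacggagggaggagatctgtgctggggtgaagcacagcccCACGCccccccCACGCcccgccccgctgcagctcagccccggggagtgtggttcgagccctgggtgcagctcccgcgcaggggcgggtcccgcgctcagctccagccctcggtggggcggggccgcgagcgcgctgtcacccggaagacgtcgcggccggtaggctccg
Ugt2b35, chr5:87000610-87000909, + strand: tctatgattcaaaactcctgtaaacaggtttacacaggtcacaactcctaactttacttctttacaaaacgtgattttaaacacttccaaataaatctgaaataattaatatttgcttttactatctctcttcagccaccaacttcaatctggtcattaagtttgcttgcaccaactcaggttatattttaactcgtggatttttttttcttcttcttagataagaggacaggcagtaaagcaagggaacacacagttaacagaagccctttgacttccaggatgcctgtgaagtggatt
The core stood 1 time in the Cyp1a1 window and 2 times in this Htatip2 window. It was in neither the Cyp1a2 nor the Ugt2b35 window, nor in the window of a second annotated Htatip2 start. The same letters are common. They stood in 47.4% of the 14243 promoter windows of tested genes and in 32.4% of all 32851 windows, so a match describes the letters and is not a binding site.

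Cyp1a1 (ENSMUSG00000032315.5) was nearly silent in CBA/J livers without TCDD, at 1.92, 1.22 and 1.21 CPM. With TCDD it stood at 1415, 1634 and 1471 CPM. The groups were far apart and the treated libraries differed little from each other. The mean went from 1.45 ± 0.41 to 1507 ± 114 CPM (SD, n = 3 each), a fitted log2 change of 10.03 ± 1.11 (SE; edgeR quasi-likelihood test, adjusted p = 1.94e-08).

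Cyp1a2 (ENSMUSG00000032310.3), which healthy liver expresses without an inducer, was already high in vehicle livers, at 1225, 712 and 603 CPM. It reached 9517, 9824 and 9018 CPM with TCDD. Vehicle replicate 1 was the highest of the controls and still far below every treated library. The means were 847 ± 332 and 9453 ± 407 CPM (SD, n = 3 each), an 11.2-fold ratio of means and a log2 change of 3.48 ± 0.48 (SE; edgeR adjusted p = 6.157e-06). On the scale of CPM Cyp1a2 gained more than Cyp1a1, from a higher start.

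Htatip2 (ENSMUSG00000039745.7) stood at 58.2, 45.1 and 60.0 CPM in vehicle livers and at 161.1, 130.9 and 112.8 CPM in TCDD livers. The groups did not overlap. The means were 54.4 ± 8.1 and 134.9 ± 24.4 CPM (SD, n = 3 each), and the log2 change was 1.31 ± 0.25 (SE; edgeR adjusted p = 0.007284). Without vehicle replicate 1 the adjusted p was 0.06077, without vehicle replicate 2 it was 0.2386 and without TCDD replicate 1 it was 0.05808, while the log2 change stayed between 1.18 and 1.42 over all 15 alternatives.

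Ugt2b35 (ENSMUSG00000035811.8) stood at 41.9, 46.7 and 66.2 CPM in vehicle livers and at 105, 120 and 104 CPM in TCDD livers. Again the groups did not overlap. The means were 51.6 ± 12.9 and 110 ± 8.8 CPM (SD, n = 3 each), and the log2 change was 1.09 ± 0.21 (SE; edgeR adjusted p = 0.01504). This call depended on single libraries and on base composition. Without vehicle replicate 1, vehicle replicate 2 or TCDD replicate 2 the edgeR adjusted p was 0.4146, 0.2386 or 0.1774. The transcripts of Ugt2b35 average 39.3% G and C, and after trends in GC content and transcript length were taken out the log2 change was 0.78 with an adjusted p of 0.5165. Ugt2 genes are close in sequence, and reads that were ambiguous between genes or had several alignments were not counted to any gene.

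**Figure D1:**
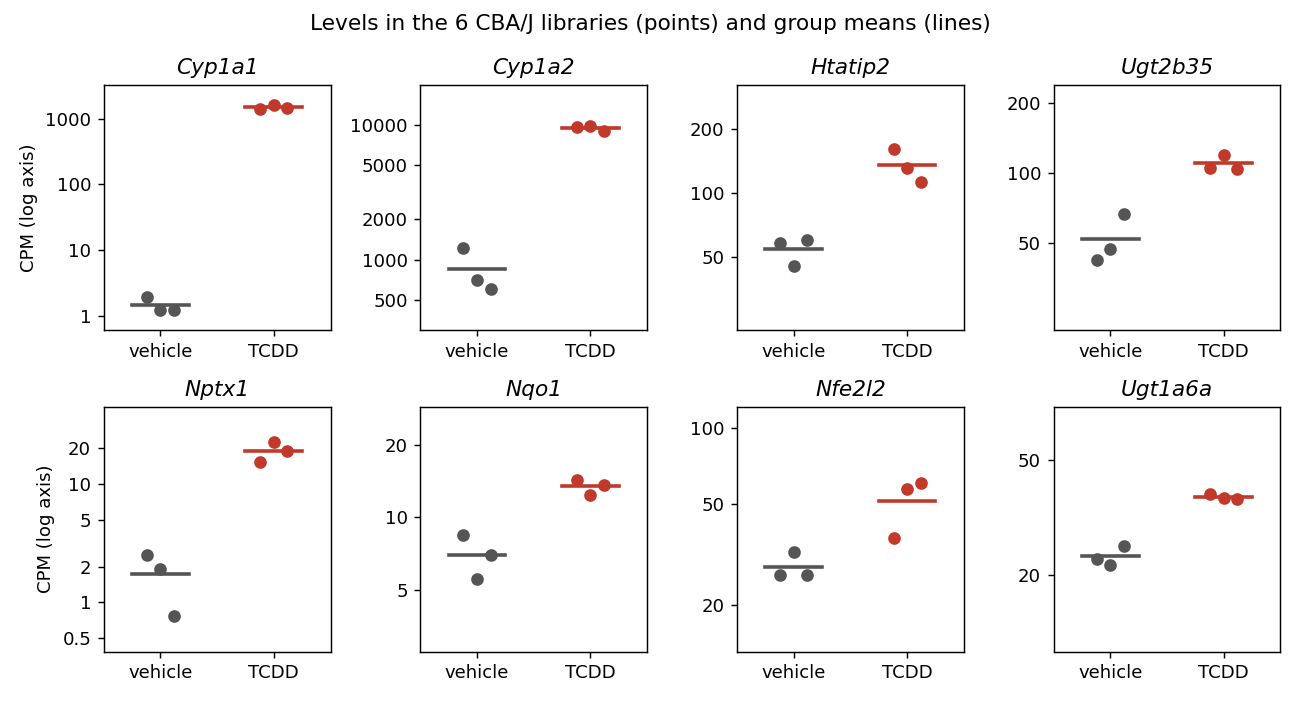
Level of 8 genes in each of the 6 CBA/J libraries, in CPM on log axes that differ between panels. Points are libraries (grey for vehicle, red for TCDD) and lines are group means. In every panel all 3 TCDD libraries lie above all 3 vehicle libraries, and the gap is widest for Cyp1a1, 1.21 to 1.92 against 1415 to 1634 CPM.

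The gene with the next smallest p was Nptx1, neuronal pentraxin, a secreted protein best known at synapses. It stood at 2.53, 1.91 and 0.766 CPM in vehicle livers and at 15.3, 22.4 and 19 CPM in TCDD livers. The groups were well separated, at means of 1.74 ± 0.90 and 18.9 ± 3.6 CPM (SD, n = 3 each), but the log2 change of 3.46 missed the threshold (edgeR adjusted p = 0.05827). With GC content and length trends taken out its adjusted p was 0.03064, and by DESeq2 it was 0.01473. No gene fell at an adjusted p below 0.05 in the edgeR fit of all 84 libraries. The genes with the smallest p among those with lower levels under TCDD were Enho, which encodes the secreted peptide adropin, Ldb1, an adaptor of LIM-domain transcription factors, and Tfeb, a transcription factor of lysosome genes. Enho stood at 105, 98.4 and 61.8 CPM in vehicle and 34.6, 32.6 and 30.5 CPM in TCDD livers (log2 change -1.44, adjusted p = 0.07385). Tfeb stood at 30.8, 27.6 and 25.2 CPM against 14.8, 12.8 and 14.9 CPM (log2 change -0.98, adjusted p = 0.08339). Ldb1 stood at 70.3, 62.5 and 47.3 CPM against 39.7, 39.2 and 35.1 CPM (log2 change -0.66, adjusted p = 0.07385). In all 3 the treated libraries lay below every vehicle library, and DESeq2 called all 3 (adjusted p = 0.01196 for Enho, 0.01473 for Tfeb and 0.01468 for Ldb1). These genes are rich in GC (65.6%, 61.6% and 58.1% for Enho, Tfeb and Ldb1), and with the GC and length trends taken out the log2 changes were -1.05, -0.64 and -0.45, with adjusted p-values of 0.3913, 0.4314 and 0.4314. Across all genes, 981 (6.06%) had all TCDD libraries above all vehicle libraries and 1123 (6.93%) had them all below, so separation alone was common.

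**Figure D2:**
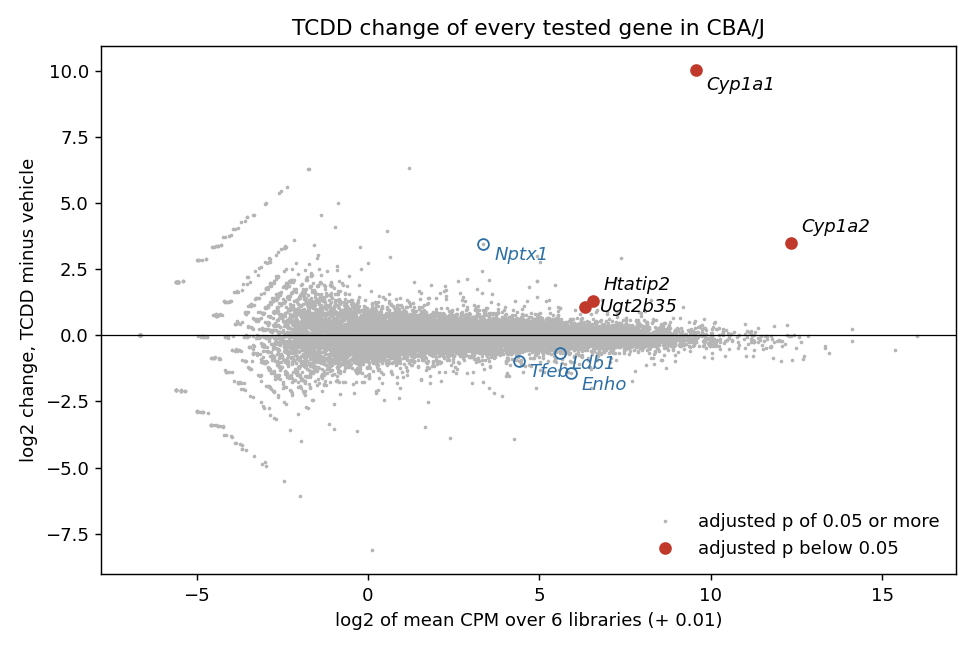
Fitted log2 change of each tested gene in CBA/J (vertical axis) against the log2 of its mean CPM over the 6 libraries plus 0.01 (horizontal axis). Red points are the 4 genes with an adjusted p below 0.05, and blue rings mark Nptx1, Enho, Tfeb and Ldb1, whose adjusted p lay between 0.05827 and 0.08339.

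Most genes on a list of AHR targets had higher fitted levels under TCDD, but few were called singly. The list, like the others, was chosen with earlier results of these data known, so its counts are not independent of these data. Of the 20 genes on it, 18 passed the filter on low counts, 16 of them had a positive log2 change, and 3 were called, Cyp1a1, Cyp1a2 and Htatip2. The median log2 change was 0.89, against -0.01 over all genes tested. At an unadjusted p below 0.05, 10 of the 18 were higher and 0 were lower, where 3.32% of all tested genes were higher and 4.95% were lower. The same shares are to be set beside such counts for every list and family below. Taking out the GC and length trends left the median at 0.66, and leaving out any 1 of the 6 libraries left it between 0.75 and 0.96.

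Nqo1, which reduces quinones, stood at 8.48, 5.58 and 6.96 CPM in vehicle livers and at 14.3, 12.4 and 13.6 CPM in TCDD livers. The groups did not overlap and the log2 change was 0.94 ± 0.29 (SE; edgeR adjusted p = 0.3063). Nfe2l2, which encodes NRF2, the regulator of antioxidant genes, stood at 26.4, 32.3 and 26.3 CPM against 36.8, 57.1 and 60.4 CPM (log2 change 0.86, adjusted p = 0.1619). TCDD replicate 1 lay closest to the controls there. Ugt1a6a, a phenol glucuronosyltransferase, stood at 22.8, 21.8 and 25.2 CPM against 38.3, 36.99 and 36.8 CPM (log2 change 0.68, adjusted p = 0.1764). Ugdh, which makes the sugar acid that these transferases attach, stood at 83.0, 87.6 and 92.2 CPM against 142.2, 189.8 and 155.1 CPM (log2 change 0.89, adjusted p = 0.1982). In each of these genes every treated library lay above every control, as it did in 10 of the 18 tested targets and in 6.06% of all tested genes. None of these genes passed the adjusted threshold.

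Tiparp stood at 1.92, 1.60 and 3.19 CPM in vehicle and 2.58, 4.94 and 4.93 CPM in TCDD livers, so the groups overlapped (log2 change 0.88, adjusted p = 0.6341). Cyp1b1, a further AHR-controlled cytochrome of the family, stayed under 1 CPM in every library, at 0.0874 to 0.306 CPM in vehicle and 0.167 to 0.713 CPM in TCDD livers. The 2 listed targets that did not pass the filter were Ahrr, at 0 to 0.153 CPM in vehicle and 0 to 0.0648 CPM in TCDD livers, and the aldehyde dehydrogenase Aldh3a1, at 0 in every vehicle library and at most 0.343 CPM in a TCDD library. The feedback repressor was thus too low to be followed at this depth. The 2 targets with a negative change were Lpcat2 (-0.21) and Ugt1a6b (-0.06), neither of them near the threshold.

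The genes of the receptor complex itself had small changes. Of 11 tested, 0 were called, and 0 had an unadjusted p below 0.05 in either direction. Ahr stood at 9.35, 20.1 and 12.96 CPM in vehicle and 14.4, 29.3 and 16.9 CPM in TCDD livers, ranges that overlap (log2 change 0.51 ± 0.34, SE; edgeR adjusted p = 0.712). Its dimer partner Arnt had a log2 change of 0.13 and the chaperone Hsp90ab1 of -0.09.

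Beyond the P450 genes and Ugt2b35, no drug-metabolising enzyme was called in the edgeR fit of all 84 libraries. Of 9 tested Ugt1a genes 8 had a positive change (median 0.94), with 5 higher at an unadjusted p below 0.05 and 0 called. The Ugt1a genes share their last exons, and reads ambiguous between genes were not counted to any gene. Ugt1a9 stood at 32.7, 32.9 and 86.0 CPM in vehicle and 116.2, 133.8 and 99.99 CPM in TCDD livers (log2 change 1.20, adjusted p = 0.4681). Of 8 tested Ugt2 genes 7 had a positive change (median 0.41), with 2 higher, of which Ugt2b35 was called, and 1 lower at an unadjusted p below 0.05. The lower one was Ugt2b38, at 0.612, 0.993 and 1.15 CPM in vehicle and 0.0833, 0.137 and 0 CPM in TCDD livers (log2 change -3.55, adjusted p = 0.3843). The Ugt2 genes have a low GC content (median 39.9%), and for Ugt2b5, at 179, 170 and 255 CPM against 271, 287 and 276 CPM, the log2 change of 0.47 was 0.15 with the GC and length trends taken out. These families, like the sulfotransferases, were grouped after their values had been seen.

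Targets of the nuclear receptors CAR and PXR, which sense drugs and control many Cyp2 and Cyp3 enzymes, were positive in 26 of 28 (median 0.42), with 0 called, 4 higher and 0 lower at an unadjusted p below 0.05. The carboxylesterase Ces2c had the smallest p, at 3.23, 1.15 and 2.43 CPM in vehicle and 8.25, 9.54 and 4.34 CPM in TCDD livers (log2 change 1.70, adjusted p = 0.1764). Cyp2b13 stood at 13.2, 1.91 and 20.3 CPM against 42.9, 73.5 and 33.0 CPM (log2 change 2.07, adjusted p = 0.3851). The list has a low median GC content of 42.4%, and with the trends taken out its median log2 change was 0.21. At an unadjusted p below 0.05, 2 members were then higher and 0 lower. Without vehicle replicate 2 the median was 0.23.

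The antioxidant and glutathione genes controlled by NRF2 were divided. Of 25 tested, 15 had a positive change (median 0.12, or 0.04 without vehicle replicate 2), with 0 called, 6 higher and 1 lower at an unadjusted p below 0.05. Thioredoxin reductase Txnrd1 stood at 133, 115 and 180 CPM in vehicle and 200, 187 and 196 CPM in TCDD livers (log2 change 0.45, adjusted p = 0.3851). Sulfiredoxin, Srxn1, stood at 31.4, 27.6 and 33.7 CPM against 50.7, 44.0 and 42.1 CPM (log2 change 0.56, adjusted p = 0.4663). The glutathione transferase Gstp1 was lower in the treated mean, at 467, 506 and 243 CPM against 267, 241 and 279 CPM, and vehicle replicate 3 lay among the treated libraries (log2 change -0.63, adjusted p = 0.4681).

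Most female-biased genes had positive and most male-biased genes negative fitted changes, none of them called in the edgeR fit of all 84 libraries. Growth hormone, secreted in different rhythms in males and females, sets this bias in the adult. Of 23 female-biased genes 20 had a positive change (median 0.39), with 6 higher and 0 lower at an unadjusted p below 0.05. Over all tested genes 3.32% were higher and 4.95% lower at that level. Of 19 male-biased genes 16 had a negative change (median -0.93), with 0 higher and 3 lower. With GC and length trends taken out the medians were 0.33 and -0.74. At the same level 4 female-biased genes were then higher and 0 lower, and 0 male-biased genes were higher and 4 lower. Over the fits that left out 1 library the medians ran from 0.25 to 0.75 and from -1.20 to -0.59.

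Among the female-biased genes, Prom1, a membrane glycoprotein gene, stood at 3.41, 3.06 and 6.58 CPM in vehicle and 18.4, 15.2 and 22.6 CPM in TCDD livers (log2 change 2.09, adjusted p = 0.28). The peroxisomal fatty acid transporter Abcd2 stood at 16.1, 24.3 and 23.5 CPM against 42.8, 62.7 and 50.5 CPM (log2 change 1.29, adjusted p = 0.3743). The sulfotransferase Sult3a1 stood at 83.2, 28.5 and 53.9 CPM against 170.7, 291.7 and 273.2 CPM (log2 change 2.15, adjusted p = 0.3851). In all 3 genes, and in 6 of the 23 in all, the treated libraries lay above every control, as they did in 6.06% of all tested genes. An edgeR fit of the CBA/J libraries alone called Prom1 and Abcd2 (adjusted p = 0.007657 and 0.02008), and no other fit did. With the GC and length trends taken out their log2 changes were 1.95 and 1.04 (edgeR adjusted p = 0.4558 and 0.4314). Sult2a2, related to Sult3a1, was detected in 1 of 3 vehicle libraries, at 0.153 CPM, and in all TCDD libraries, at 2.92, 4.46 and 6.23 CPM. Its adjusted p was 0.1764 in the edgeR fit of all 84 libraries, 0.0004887 in that of CBA/J alone and 0.002178 by DESeq2. With the GC and length trends taken out its edgeR adjusted p was 0.4314. Of 8 tested Sult2a and Sult3a genes 7 had a positive change, with 4 higher and 0 lower at an unadjusted p below 0.05. These genes have a low GC content (median 40.1%).

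Among the male-biased genes, the complement component C6 stood at 30.1, 53.5 and 29.0 CPM in vehicle and 17, 11.9 and 21.7 CPM in TCDD livers (log2 change -1.15, adjusted p = 0.4162). The fatty acid hydroxylase Cyp4a12a stood at 6.82, 32.9 and 34.4 CPM against 2.92, 4.39 and 7.78 CPM, where vehicle replicate 1 lay within the treated range (log2 change -2.29, adjusted p = 0.5601). Cyp2d9 stood at 105.3, 166.6 and 100.5 CPM against 53.8, 50.4 and 60.2 CPM, without overlap (log2 change -1.18, adjusted p = 0.7117). The edgeR fit of the CBA/J libraries alone called Cyp2d9 (adjusted p = 0.04555), and no other fit did. With the GC and length trends taken out its log2 change was -1.07 (edgeR adjusted p = 0.9721). The treated libraries lay below every control in 7 of the 19 male-biased genes, as they did in 6.93% of all tested genes. Summed over the list, male-biased genes stood at 986 to 1578 CPM in vehicle and 902 to 1007 CPM in TCDD livers.

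**Figure D3:**
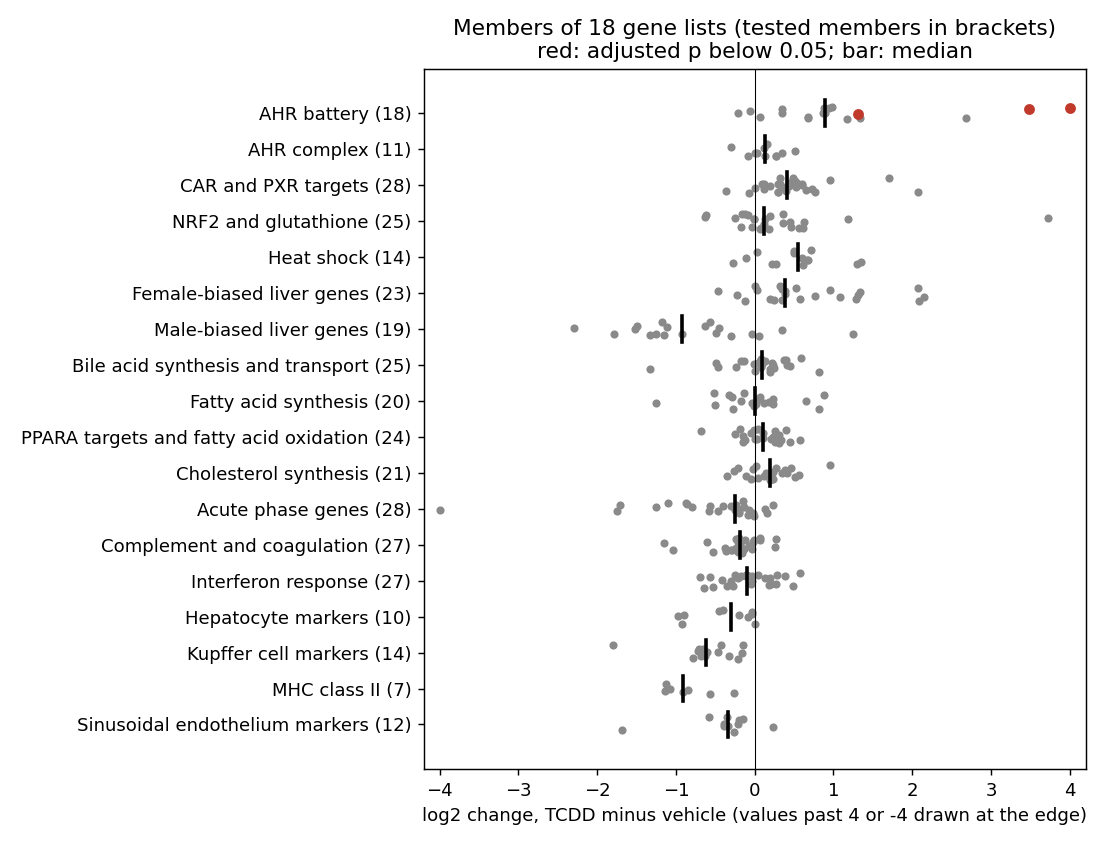
Fitted log2 change of the tested members of 18 gene lists in CBA/J (horizontal axis, with values past 4 or -4 drawn at the edge), 1 point per gene and the number of tested members in brackets. Red points have an adjusted p below 0.05 and black bars are list medians, which run from -0.93 for male-biased genes to 0.89 for AHR targets.

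Acute phase genes, which hepatocytes secrete in larger amounts in inflammation, had a negative change in 25 of 28 (median -0.25), with 0 called, 0 higher and 4 lower at an unadjusted p below 0.05. Haptoglobin, Hp, stood at 4487, 3967 and 5504 CPM in vehicle and 2747, 1921 and 2990 CPM in TCDD livers (log2 change -0.87, adjusted p = 0.3851). Serum amyloid Saa3 stood at 4.37, 10.2 and 5.24 CPM against 2.92, 1.51 and 1.69 CPM (log2 change -1.71, adjusted p = 0.3851). The metallothionein Mt1 stood at 2923, 2192 and 2826 CPM against 1542, 1471 and 1569 CPM (log2 change -0.79, adjusted p = 0.716). In these 3 genes, and in 11 of the 28 in all, every treated library lay below every control, as it did in 6.93% of all tested genes. Complement and coagulation genes were negative in 23 of 27 (median -0.19), with 0 higher and 4 lower at an unadjusted p below 0.05. Markers of hepatocytes, the cells that make these proteins, were negative in 10 of 10 (median -0.30), with 0 called and 3 lower at an unadjusted p below 0.05. Their summed level was 126800, 97530 and 103800 CPM in vehicle and 98880, 90090 and 93790 CPM in TCDD livers, so vehicle replicate 2 lay within the treated range. Without vehicle replicate 1 the median of these markers was -0.10. Their part in the acute phase result was not tested.

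Genes of hepatic macrophages were lower in the treated mean, with 1 control library prominent. All 14 Kupffer cell markers had a negative change (median -0.62), with 0 called and 5 lower at an unadjusted p below 0.05. Their summed level was 664, 1164 and 816 CPM in vehicle and 709, 504 and 627 CPM in TCDD livers, so vehicle replicate 2 was the highest and vehicle replicate 1 lay within the treated range. The lectin Clec4f, which marks Kupffer cells, stood at 126.3, 220.5 and 136.8 CPM against 122.4, 78.9 and 111.2 CPM (log2 change -0.63, adjusted p = 0.5854). Without vehicle replicate 2 the median of the list was -0.30. In bulk tissue fewer cells of a type and less RNA per cell cannot be told apart.

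The same library stood out in MHC class II genes, which present antigen. They summed to 131.7, 383 and 79.4 CPM in vehicle and 95.5, 89.4 and 102 CPM in TCDD livers. All 7 tested members had a negative change (median -0.91), with 0 called, and without vehicle replicate 2 the median was -0.13. Sinusoidal endothelium markers were negative in 11 of 12 (median -0.34), and without that library the median was 0.01. Vehicle replicate 2 was thus the highest library in markers of all 3 cell groups. For acute phase genes the median ran from -0.33 to -0.15 when each library was left out, the latter without TCDD replicate 2, where 8 of 28 were positive.

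Other liver programmes held no gene called in the edgeR fit of all 84 libraries. Fatty acid synthesis genes were positive in 10 of 20 (median 0.01), PPARA targets and genes of fatty acid oxidation in 16 of 24 (0.10), bile acid genes in 18 of 25 (0.10) and cell cycle genes in 12 of 25 (-0.02). Single libraries moved these medians: for the PPARA list the median was 0.46 (20 of 24 positive) without vehicle replicate 3 and -0.14 (10 of 24) without vehicle replicate 2, and for cell cycle genes it was 0.26 (19 of 25) without vehicle replicate 2. Without that library the bile acid list had a median of 0.03. Cholesterol synthesis genes were positive in 15 of 21 (median 0.20), and the median was 0.44 without vehicle replicate 1 and -0.06 without vehicle replicate 3. Genes of amino acid and urea metabolism were positive in 4 of 20 (median -0.15), or 10 of 20 (median 0.04) without vehicle replicate 1. Heat shock genes were positive in 12 of 14 (median 0.55), of which 1, the co-chaperone Dnajb1, was higher at an unadjusted p below 0.05. Dnajb1 stood at 69.1, 39.8 and 48.8 CPM in vehicle and 88.1, 91.1 and 71.5 CPM in TCDD livers (log2 change 0.67, adjusted p = 0.5298). The heat shock protein gene Hspa1b stood at 135.2, 28.3 and 28.8 CPM against 162.4, 156.8 and 169.2 CPM, with vehicle replicate 1 near the treated libraries (log2 change 1.35, adjusted p = 0.6414). The fatty acid receptor Cd36, on the list of lipid uptake and storage, stood at 12.5, 11.5 and 31.2 CPM against 62.3, 89.1 and 56.9 CPM (log2 change 1.91, adjusted p = 0.1764). By DESeq2 its adjusted p was 0.03793, and in the edgeR fit of the CBA/J libraries alone it was 0.2125. With the GC and length trends taken out the log2 change of Cd36 was 1.59 (edgeR adjusted p = 0.5399).

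The TCDD changes of CBA/J followed the base composition of the genes. With the genes ordered by GC content and cut into 10 bins of like size, the median log2 change was 0.30 in the bin of lowest GC content, and it went down from bin to bin to -0.30 in the highest. In the lowest bin 110 genes were higher and 5 lower at an unadjusted p below 0.05, and in the highest bin 11 were higher and 259 lower. Genes higher at that level had a median GC content of 46.3%, those lower 56.6% and the remaining ones 50.8%. The trend on length was weaker, with medians of -0.10 in the bin of shortest genes and 0.05 in that of the longest.

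The slopes on GC content were largest in size in vehicle replicate 1 and in TCDD replicates 2 and 3. Relative to the mean of the 6, the log2 level went up by 0.38 per 10 percentage points of GC content in vehicle replicate 1 and down by slopes of -0.29 and -0.19 in TCDD replicates 2 and 3. In vehicle replicates 2 and 3 and TCDD replicate 1 the slopes were 0.03, 0.04 and 0.03. The last 3 libraries thus had like slopes in both groups. Because slopes are relative to the mean of the 6, a small slope does not mean that a library is free of the trend. After the trends of each library were taken out, the bins had medians between -0.02 and 0.02, and the genes at an unadjusted p below 0.05 went from 537 higher and 802 lower to 413 higher and 425 lower. Called genes still numbered 4, of which Cyp1a1, Cyp1a2 and Htatip2 were the same and Nptx1 stood in place of Ugt2b35. Whether treatment, sample handling or library preparation set these slopes was not tested.

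**Figure D4:**
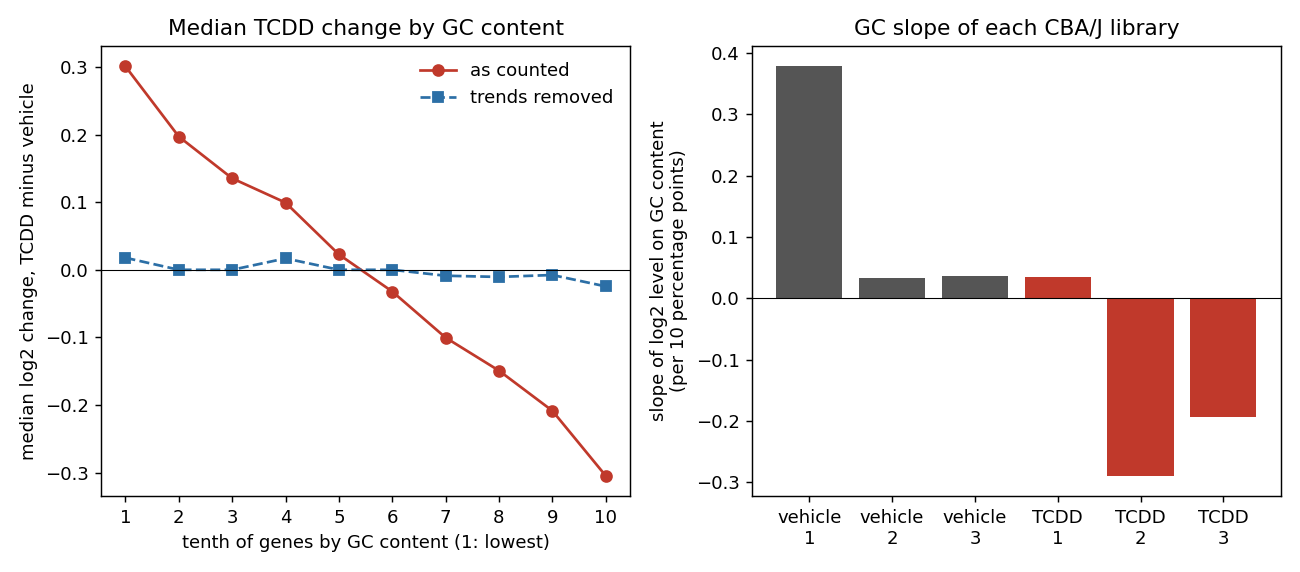
Left, median log2 change of CBA/J genes in 10 bins by GC content, as counted (red) and with the GC and length trends of each library taken out (blue), running from 0.30 to -0.30 as counted. Right, slope of the log2 level on GC content in each CBA/J library (grey vehicle, red TCDD), in log2 units per 10 percentage points relative to the mean of the 6, highest in vehicle replicate 1 (0.38) and lowest in TCDD replicate 2 (-0.29).

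Cyp1a1 was the only gene whose TCDD change in CBA/J differed, at an adjusted p below 0.05, from the mean change of the other 13 strains (1 of 16195 genes, 0.00617%). The mean log2 change in those strains was 4.70 ± 0.32 (SE), and that of CBA/J was larger by 5.34 ± 0.99 (SE; edgeR adjusted p = 0.02133). That mean covers strains of unlike response, with treated means from 0.64 CPM in NOD/SHILTJ to 1651 CPM in BXD91/2RwwJ. Its SE reflects how far libraries vary, not how far strains differ. Without vehicle replicate 1 or 2 the difference was 5.57 or 5.23 with an adjusted p of 0.2952 or 0.3792, and 0 genes were called. Without TCDD replicate 2, TCDD replicate 1 or vehicle replicate 3 the count was 2, 5 or 17 genes. For Cyp1a2 the CBA/J change was larger by 1.28 ± 0.46 (adjusted p = 0.4072), for Htatip2 by 0.65 ± 0.25 (adjusted p = 0.4442) and for Ugt2b35 by 0.87 ± 0.22 (adjusted p = 0.2469). After Cyp1a1 the smallest p in that comparison belonged to Ldb1, whose change was -0.66 in CBA/J and 0.08 on average elsewhere (difference -0.74, adjusted p = 0.06501).

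The level of Cyp1a1 in treated CBA/J livers was close to that in BXD91/2RwwJ, where it stood at 0.454, 0.456 and 1.12 CPM in vehicle and 1425, 1663 and 1864 CPM in TCDD livers, from lowest to highest. Treated C3HeB/FeJ livers were far more uneven, at 97.9, 203 and 1446 CPM. No gene changed differently in CBA/J and BXD91/2RwwJ at an adjusted p below 0.05 (0 of 16195, 0.0%, by edgeR, with 557 at an unadjusted p below 0.05 and 1 called by DESeq2). Between CBA/J and C3HeB/FeJ the count was also 0 (0.0%, with 1409 at an unadjusted p below 0.05 and 0 called by DESeq2). These counts do not show that the strains respond alike. The Cyp1a1 change of CBA/J was smaller than that of BXD91/2RwwJ by 1.18 (difference -1.18 ± 1.35, SE) and larger than that of C3HeB/FeJ by 0.62 ± 1.35, each SE larger than the difference itself. Among the 5 genes with the smallest p against C3HeB/FeJ were the deiodinase gene Dio1 (difference -2.18) and the apolipoprotein gene Apoc2 (difference -1.18), both at an adjusted p of 0.5195.

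For Ugt2b35 the treated levels from lowest to highest were 96.5, 112.2 and 142.2 CPM in BXD91/2RwwJ and 39.8, 62.9 and 68.7 CPM in C3HeB/FeJ. Its log2 change was 0.85 in the former (adjusted p = 0.2128) and 0.24 in the latter (adjusted p = 0.9094). The difference between CBA/J and C3HeB/FeJ was 0.85 ± 0.30 (SE; edgeR adjusted p = 0.5195). Htatip2 had a log2 change of 1.57 in BXD91/2RwwJ (adjusted p = 9.008e-05) and 1.23 in C3HeB/FeJ (adjusted p = 0.02646), so it was called in all 3 strains. Nptx1, just short of a call in CBA/J, had a log2 change of 4.14 in BXD91/2RwwJ (adjusted p = 0.006347), 3.75 in C3HeB/FeJ (adjusted p = 0.02646) and 1.53 on average in the other 13 strains. Enho, Tfeb and Ldb1 had changes of -0.63, -0.18 and 0.01 in BXD91/2RwwJ and 0.17, -0.10 and 0.02 in C3HeB/FeJ.

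**Figure D5:**
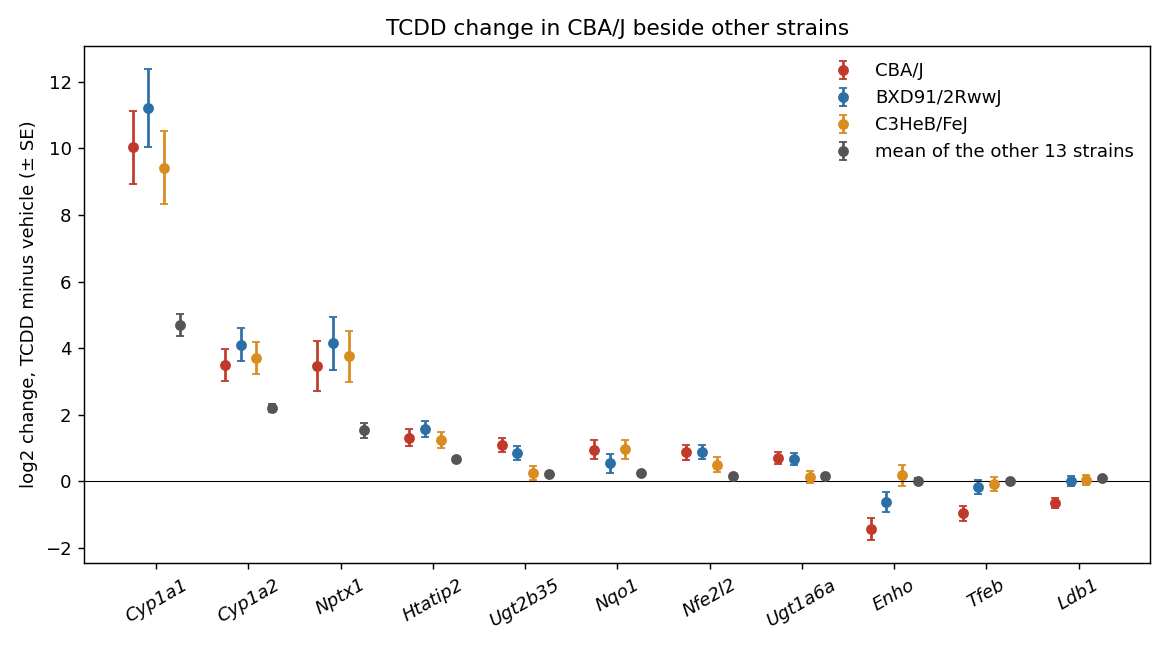
Fitted log2 change (vertical axis, ± SE) of 11 genes in CBA/J, BXD91/2RwwJ, C3HeB/FeJ and on average in the other 13 strains, which include the last 2. For Cyp1a1 the 3 single strains lie between 9.42 and 11.21 and the mean of the other 13 strains at 4.70.

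The authors' deposited table for CBA/J lists an adjusted p for 9373 of its 26400 genes and calls 20 of them at 0.05, 10 higher and 10 lower. All 20 were tested here and had the same sign, and 4 of the 20 were called here. The authors' deposited table puts the log2 change of Cyp1a1 at 10.01, of Cyp1a2 at 3.47, of Htatip2 at 1.30 and of Ugt2b35 at 1.08. Its next calls include Sult2a2, Ldb1, Enho, Tfeb, Epop, Serpina11, Fam25c and Maoa, which had adjusted p-values of 0.07385 to 0.1764 here. Maoa, the mitochondrial monoamine oxidase, stood at 6.38, 5.19 and 5.56 CPM in vehicle and 7.92, 12.2 and 9.73 CPM in TCDD livers (log2 change 0.80). Fam25c stood at 60.2, 56.7 and 25.9 CPM against 13.9, 8.24 and 14.2 CPM (log2 change -1.97). Both kept the groups apart. With the GC and length trends taken out the log2 changes of Maoa and Fam25c were 0.45 and -1.73 (edgeR adjusted p = 0.9721 and 0.2602).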

How the data were processed

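Libraries were prepared with a NEBNext Ultra RNA kit from RNA with an integrity number of at least 7, per the labels' protocols; the kit does not mark strand, so genes and their antisense partners cannot be told apart. Per the submitters' processing notes, FastQC 0.11.5, Trimmomatic 0.38, Bowtie2 2.3.2.25, HTSeq 0.6.1, DESeq2 (given as version 3.8) and build mm9 were used. The authors deposited raw counts per gene for 84 libraries and a table of their own log2 fold changes and p-values for each strain. Of 37310 gene IDs, 32620 were named from a reference table and 10 from the authors' table. Rows that name no gene were left out of totals and tests. In CBA/J they held 47.0% to 48.5% of reads in no gene, 0.878% to 1.17% ambiguous and 9.09% to 9.94% with several alignments.

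All 84 libraries were fitted together in R 4.3.3 with edgeR 4.0.16 (TMM factors 0.804 to 1.01 in CBA/J, filterByExpr, robust quasi-likelihood, 28 groups, 16195 genes, common dispersion 0.0651), so that all groups share the estimate of spread. The contrasts were TCDD minus vehicle in CBA/J and its differences from the mean of the other 13 strains, from BXD91/2RwwJ and from C3HeB/FeJ. Genes are called at a Benjamini-Hochberg adjusted p below 0.05, adjusted in each contrast over all genes. CPM divide by the TMM-scaled total of the genes tested. A change is the fitted log2 fold change, and its SE was taken from the change and its F statistic. Replicate pairs differed by 20.6 to 56.0 times counting error (chi-square per degree of freedom), so none was a library deposited a second time.

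GC content and length are means over a gene's transcripts in a GENCODE annotation of GRCm38, found for 15515 genes (95.8%). Splines of 4 degrees of freedom per library were taken out as offsets. Promoters were matched by symbol from RefSeq tables, with no entry for Nptx1. Alternatives were DESeq2 1.42.0, size factors by median ratio, testing without the low-count filter or without robust estimation, only the strains compared, leaving out each CBA/J library or 3 libraries of other strains, and the GC and length trends; removing either trend alone was added after seeing the data.

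The comparison and the 43 gene lists were chosen with earlier results of these data known. Genes named are calls, the AHR lists, the 2 members of each list with the smallest p and the 5 smallest p-values of each difference; other genes were named after their values were seen, and some named by the rule are given only through their lists or are not reported here. In simulated counts for 16195 genes the CBA/J test recovered 50 of 50 genes changed by 3 log2 units and 48 of 50 by 2. It recovered 19 of 50 by 1 and 1 of 50 by 0.5, with 4 calls among 15995 unchanged genes. These counts followed the fitted trend of spread on level, and only genes above 1 CPM were changed. They held no spread of single genes around that trend, no GC slopes of single libraries and no outlying libraries. Recovery in the real libraries can therefore be lower.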

Additional observations from a re-analysis of the deposited data

Results flagged for a closer look

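The TCDD change of Cyp1a1 differed between CBA/J and the other 13 strains in a test of the difference itself. The log2 change was 10.03 in CBA/J and 4.70 on average in the others, a difference of 5.34 (edgeR quasi-likelihood test, adjusted p = 0.02133), and all 3 treated CBA/J libraries lay between 1415 and 1634 CPM. That average covers strains of unlike response, and CBA/J did not stand alone. The log2 change was 11.21 in BXD91/2RwwJ and 9.42 in C3HeB/FeJ. Treated BXD100/RwwJ livers stood at 1140, 1264 and 1601 CPM and treated C57BL6/J livers at 1.22, 1324 and 1706 CPM, from lowest to highest. Over 14 alternatives the difference ran from 5.22 to 5.57, and it was called in 12 of them.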

How the results depend on the processing

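Cyp1a1 and Cyp1a2 rose in all 15 alternatives, with log2 changes of 9.92 to 10.27 and 3.30 to 3.85. Htatip2 was called in 12 of 15 (adjusted p up to 0.2386) and Ugt2b35 in 10 of 15 (adjusted p up to 0.5467). Ugt2b35 was not called when the GC trend was taken out, alone or with length. Nor was it called without vehicle replicate 1, vehicle replicate 2 or TCDD replicate 2. The 4 genes called in CBA/J became 15 (8 higher, 7 lower) with DESeq2 and 21 (12 higher, 9 lower) in a fit of the CBA/J libraries alone, and both counts include the 4. Leaving out each CBA/J library gave 2 to 25. The single gene that differed from the other 13 strains became 9 with DESeq2, 2 with median-ratio size factors and 2 without 3 libraries of other strains, and 0 to 17 when each CBA/J library was left out. The count of 0 against BXD91/2RwwJ became 1 with DESeq2, 1 in a fit of the 2 strains alone and 0 to 3 with each library left out. The count of 0 against C3HeB/FeJ was 0 to 4 with each library left out and 0 in the other alternatives. The cause of these moves was not tested. A fit of CBA/J alone gives no difference from the other 13 strains.

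No paired analysis was possible because replicate numbers only follow the order of the accessions. With 3 libraries per group the simulated test found 19 of 50 genes changed by 1 log2 unit, so changes of that size are often missed.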

Other observations

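A few more genes were picked after their values were seen, and none of them was called in the edgeR fit of all 84 libraries. The edgeR fit of the CBA/J libraries alone called Alas2 and Epop (adjusted p = 0.009239 and 0.02008). With the GC and length trends taken out each had an edgeR adjusted p of 0.3003. DESeq2 called Epop (adjusted p = 0.01473), and the authors' deposited table calls Dio1 and Epop (DESeq2 adjusted p = 0.03134 and 0.01176). The deiodinase Dio1 had a log2 change of -1.45 (adjusted p = 0.1764) and Epop, which binds elongin and the Polycomb complex, stood at 27.1, 14.9 and 13.7 CPM in vehicle and 4.83, 6.11 and 3.11 CPM in TCDD livers (log2 change -1.98, adjusted p = 0.1013). The erythroid heme synthesis gene Alas2 stood at 55.0, 53.7 and 43.4 CPM in vehicle and 19, 16.3 and 23.5 CPM in TCDD livers (log2 change -1.37, adjusted p = 0.1764). The red cell marker Hba-a1 was at most 0.306 CPM in all 6 libraries. Reads with several alignments were not counted to any gene, so this low count does not measure the red cell content of the livers. Only 8 of the 12 listed erythroid markers were matched to a gene ID. Of the 7 tested, which include Alas2 and Hba-a1, 3 had a positive change, 1 was higher and 1 lower at an unadjusted p below 0.05, and the log2 changes ran from -4.11 to 2.51. Their median was -0.36, or -0.05 with the GC and length trends taken out and 0.03 without vehicle replicate 1. The stress gene Gadd45g, on the list of p53 targets, stood at 5.16, 7.33 and 7.86 CPM in vehicle and at 112, 47.8 and 3.70 CPM in TCDD livers, so 2 treated libraries were high and TCDD replicate 3 lay below the controls (log2 change 3.00, adjusted p = 0.4391). Of 16 tested p53 targets 10 had a positive change (median 0.31, or 0.16 without vehicle replicate 1 or 2), with 1 higher and 2 lower at an unadjusted p below 0.05.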
